A study of Mus musculus with 2 samples.

Results

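The genes described here are Cxcl1, Cxcl2, Cxcl3, Cxcl5 and Ppbp, the mouse CXC chemokines that draw neutrophils, taken by symbol as 5 of the 31053 genes counted. They were chosen with earlier results of the same libraries known, selected on their levels in the old and young libraries, so their differences between the libraries are given as a description and no result is supported by them. The data are single-cell RNA libraries of stromal cells from perivascular adipose tissue, which surrounds the aorta, with 1 library from old and 1 from young mice. The series title places them in work on abdominal aortic aneurysm. Both groups are labelled wild type (WT) and primary perivascular stromal cells, with no other treatment named. Neither the exact ages, the number and sex of the mice nor any culture step is stated in the labels used here. The tissue had been digested with 0.2% collagenase for 45 min at 37 °C, so that only cells that survived the digest and passed 70 μm strainers could be captured.

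These chemokines are small secreted proteins with a glutamate-leucine-arginine motif before their first cysteines. They bind the receptor CXCR2 on neutrophils and guide these cells out of the blood. In mice Cxcl1 and Cxcl2 take the place of human interleukin 8, for which mice have no gene. Their transcripts are short-lived and are induced within hours by interleukin 1, tumour necrosis factor, interleukin 17 and microbial products through NF-κB, in fibroblasts, endothelium and myeloid cells alike. Cxcl5 is known as a product of stromal and epithelial cells, and Ppbp, the precursor of platelet basic protein and its neutrophil-activating cleavage products, as a product of the platelet lineage.

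All 5 genes lie on the forward strand of mouse chromosome 5 (GRCm38, GENCODE vM21) within 147 kb that hold 7 protein-coding genes, all of them chemokine genes. Cxcl5 is at chr5:90759360-90761624, Ppbp at chr5:90768518-90770063, Cxcl3 at chr5:90786103-90789600, Cxcl1 at chr5:90891241-90893115 and Cxcl2 at chr5:90903871-90905938. The promoter windows of 4 members were found in the RefSeq table (GRCm38.p6), and a stretch of 80 bases before each start is shown because 3 of these stretches share the same letters. Capitals mark GGGAATTTCCC, the longest run of letters that the 3 windows share before the start and of the κB type to which NF-κB proteins bind, and ATAAAA, which is of the TATA box type.
Cxcl1, chr5:90891149-90891228: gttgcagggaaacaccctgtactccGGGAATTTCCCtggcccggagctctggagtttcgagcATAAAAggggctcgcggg
Cxcl2, chr5:90903777-90903856: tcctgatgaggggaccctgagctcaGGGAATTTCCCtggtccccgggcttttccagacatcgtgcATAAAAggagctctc
Cxcl3, chr5:90786003-90786082: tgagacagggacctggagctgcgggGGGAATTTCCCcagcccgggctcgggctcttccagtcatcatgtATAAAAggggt
Ppbp, chr5:90768423-90768502: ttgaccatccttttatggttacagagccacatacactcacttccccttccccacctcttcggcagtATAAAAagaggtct

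Counted from the RefSeq starts, GGGAATTTCCC began 71 bases before the start of Cxcl1, 97 before that of Cxcl2 and 73 before that of Cxcl3. ATAAAA began 34, 57 and 29 bases before these starts, and 29 bases before that of Ppbp, whose window held no GGGAATTTCCC. The RefSeq start of Cxcl2 lies downstream of the GENCODE start given above, from which its 97 and 57 bases would be fewer. Searched on both strands over the 300 bases from 250 before to 50 after the start, GGGAATTTCCC occurred in 14 of 32851 promoters (0.0426%). ATAAAA on the gene's strand within 60 bases before the start occurred in 985 of them (3.0%), a window widened after Cxcl2 had been seen to fall outside a narrower one. Both together occurred in 3 promoters (0.00913%), those of Cxcl1, Cxcl2 and Cxcl3, in which the runs do not overlap. The first run was read from these 3 windows, so their own matches are given by that choice. A match of letters is a description of these windows and says nothing of binding.

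The old library held 14636 cell barcodes with 147166475 unique molecular identifiers (UMIs, 1 per captured transcript), and the young library 13104 barcodes with 130398999 UMIs. Medians per barcode were 9108 and 9044.5 UMIs. Barcodes over 10% mitochondrial UMIs were 5.78% of the old and 1.83% of the young library and were left out. The remaining 13711 old and 12755 young barcodes were put into classes by UMIs of marker genes. Mesenchymal barcodes, which hold collagens, Dcn and Pdgfra, numbered 11282 in the old and 11592 in the young library. Endothelial barcodes numbered 1135 and 39, mesothelial barcodes 51 and 313, and Schwann cell barcodes 37 and 39. Macrophage barcodes numbered 97 and 1 and adipocyte barcodes 82 and 3, so young values of these last 2 classes are not compared. Marker genes kept out of the gates followed the names: the 6 macrophage check genes summed to 989.7 UMIs per 1000000 UMIs of the class (CPM) in old macrophage barcodes and 10.5 CPM in old mesenchymal ones, and the endothelial check genes to 302 CPM in old endothelial barcodes and 5.97 CPM in old mesenchymal ones. The adipocyte check genes were not absent from mesenchymal barcodes, at 422 CPM against 45699 CPM in old adipocyte barcodes. There were 275 barcode sequences common to both libraries. With 1 library per age there is no test across animals, and all intervals below are 95% intervals for counting error only.

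Transcripts of 4 of the 5 chemokines were far more abundant in old than in young mesenchymal barcodes. Cxcl1 had 388480 UMIs in old barcodes, a level of 3184 CPM (interval 3174 to 3194), and 3156 UMIs in young barcodes, a level of 26.0 CPM (25.1 to 26.9). The ratio was 123-fold, a log2(old/young) of 6.94 (6.89 to 6.99). Cxcl1 thus had the most UMIs of the 5 chemokines in old mesenchymal barcodes, and its intervals in the libraries lay far apart. Cxcl5 had 285973 UMIs (2344 CPM) in old and 3009 UMIs (24.7 CPM) in young mesenchymal barcodes, a log2 difference of 6.57 (6.51 to 6.62).

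The closely related pair Cxcl2 and Cxcl3, which also act through CXCR2, showed larger ratios at far lower levels. Cxcl2 had 13018 UMIs (107 CPM) in old mesenchymal barcodes and 21 UMIs (0.173 CPM) in young ones, a log2 difference of 9.27 (8.66 to 9.96). Cxcl3 had 2930 UMIs (24.0 CPM) and 11 UMIs (0.0905 CPM), a log2 difference of 8.05 (7.21 to 9.06). The intervals of the Cxcl2 and Cxcl3 ratios overlap each other and both lie above those of Cxcl1 and Cxcl5. Cxcl2 and Cxcl3 transcripts share 80 stretches of 31 bases, all at least 850 bases from their 3′ ends, whereas the library chemistry reads near the 3′ end. No other pair of the 5 genes shared such a stretch.

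Ppbp was near absent from mesenchymal barcodes, with 46 UMIs (0.377 CPM) in old and 7 UMIs (0.0576 CPM) in young ones. Its log2 difference of 2.71 (1.55 to 4.10) rests on these few UMIs. All 5 members were at least 2-fold higher in old mesenchymal barcodes, where 9.51% of the 15402 genes with at least 20 UMIs were. For 10-fold this was 4 of 5 members against 1.34% of genes, and for 100-fold 3 of 5, Cxcl1, Cxcl2 and Cxcl3, against 0.0649%. The choice of members used this contrast, so nothing is read from these shares. The median log2 difference was 6.94 over the members and 0.13 over all genes.

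**Figure D1:**
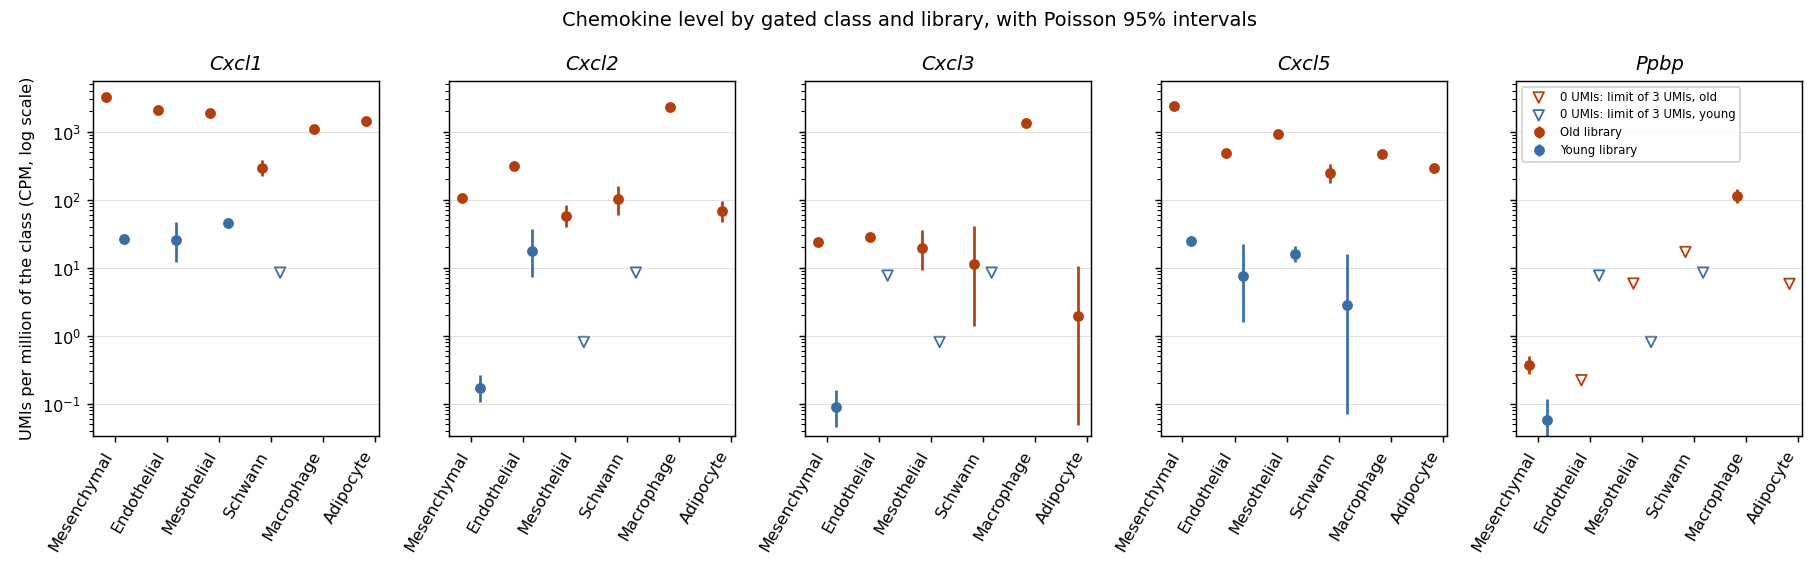
Level of each chemokine (CPM, log scale) in 6 classes of barcodes of the old library (red) and the young library (blue), with Poisson intervals; open triangles mark 0 UMIs, drawn at the level that 3 UMIs would give, and young macrophage and adipocyte barcodes (1 and 3) are not drawn. Cxcl1 and Cxcl5 lie highest in old mesenchymal barcodes (3184 and 2344 CPM) and Cxcl2, Cxcl3 and Ppbp in old macrophage barcodes (2296, 1328 and 112 CPM).

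Among the classes of the old library the chemokines divided into a mesenchymal pair and a macrophage group. Cxcl1 was highest in mesenchymal barcodes at 3184 CPM, followed by endothelial (2043), mesothelial (1892), adipocyte (1440.05), macrophage (1085) and Schwann cell barcodes (294 CPM). No neighbours in this order had overlapping intervals. Cxcl5 fell off more steeply, with 2344 CPM in mesenchymal and 932 CPM in mesothelial barcodes. Endothelial (477) and macrophage (471 CPM) levels of Cxcl5 overlapped, as did those of adipocyte (289) and Schwann cell barcodes (243 CPM).

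Cxcl2 and Cxcl3 had another order. Cxcl2 stood at 2296 CPM in old macrophage barcodes, 306 CPM in endothelial ones and 107 CPM in mesenchymal ones, each interval apart from the next. In Schwann cell, adipocyte and mesothelial barcodes Cxcl2 was at 102, 67.4 and 58.3 CPM, from 18 to 35 UMIs, with overlapping intervals, and 12 of the 18 UMIs in Schwann cell barcodes came from 1 barcode. Cxcl3 stood at 1328 CPM in old macrophage barcodes, 27.8 CPM in endothelial and 24.0 CPM in mesenchymal ones, and rested on 10 or fewer UMIs in each other class. Ppbp had 72 UMIs (112 CPM) in old macrophage barcodes and 0 UMIs in old endothelial, mesothelial, Schwann cell and adipocyte barcodes, which allows up to 0.222 CPM in endothelial barcodes.

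Because mesenchymal barcodes outnumber the others, they still held most of the transcripts. Of the UMIs in classed old barcodes, mesenchymal ones held 97.5% for Cxcl5, 92.8% for Cxcl1, 70.2% for Cxcl3 and 69.6% for Cxcl2. Macrophage barcodes, 97 in all, held 20.4% of the Cxcl3 and 7.87% of the Cxcl2 UMIs, and endothelial barcodes 22.1% of the Cxcl2 UMIs. For Ppbp the macrophage share was 61.0% and the mesenchymal share 39.0%.

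The sum of the 5 chemokines was similar in old macrophage and mesenchymal barcodes, at 5291 and 5659 CPM, but its make-up was not. In old macrophage barcodes Cxcl2 made up 43.4%, Cxcl3 25.1% and Cxcl1 20.5% of the chemokine UMIs, and in old mesenchymal ones Cxcl1 made up 56.3% and Cxcl5 41.4%. Old macrophage barcodes held 212 Cxcl2 UMIs per 100 Cxcl1 UMIs, old endothelial barcodes 14.998 and old mesenchymal barcodes 3.35. The macrophage value depended on the gate: with a looser one, which held 117 barcodes, Cxcl2 was at 1363 CPM and Cxcl1 at 1686 CPM, so that their order turned. Young mesenchymal barcodes summed to 51.0 CPM, with 50.9% Cxcl1 and 48.5% Cxcl5, and had 0.665 Cxcl2 UMIs per 100 Cxcl1 UMIs. The near-equal split between Cxcl1 and Cxcl5 was therefore seen in mesenchymal barcodes of both libraries, with 73.6 Cxcl5 UMIs per 100 Cxcl1 UMIs in old and 95.3 in young ones.

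**Figure D2:**
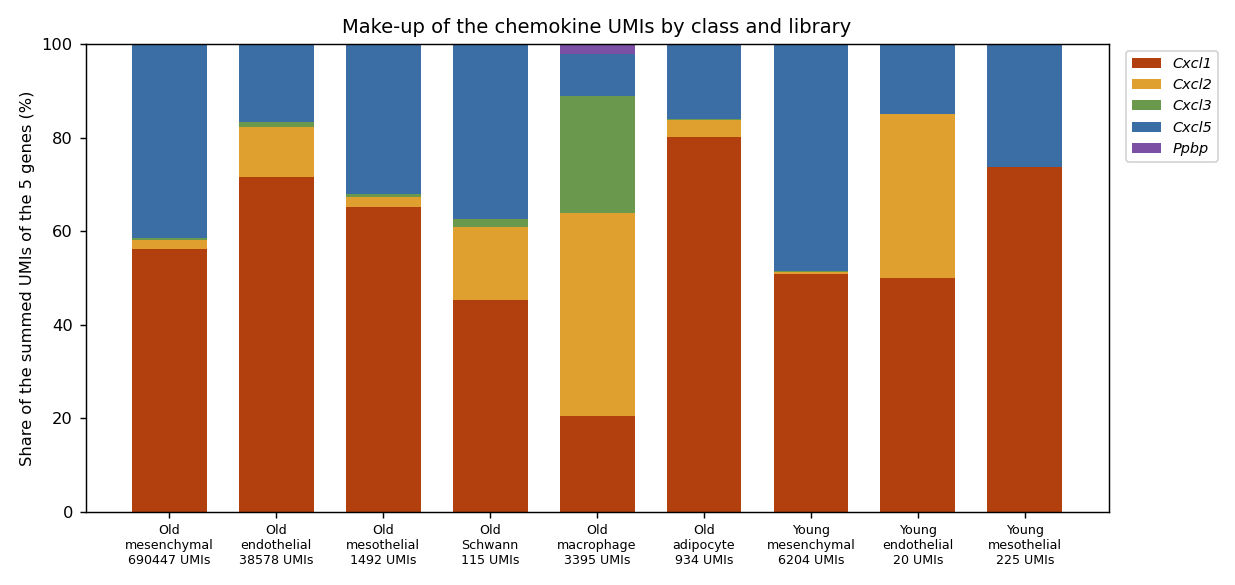
Share (%) of each chemokine in the summed UMIs of the 5 genes, by class and library, with the number of UMIs under each bar. Cxcl2 and Cxcl3 together fill most of the old macrophage bar (43.4% and 25.1%), whereas Cxcl1 (56.3%) and Cxcl5 (41.4%) fill the old mesenchymal bar; the young endothelial bar rests on 20 UMIs.

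In classes with enough young barcodes the same direction was seen, with wide intervals. Cxcl1 in old mesothelial barcodes was 1892 CPM, against 44.7 CPM in young ones (166 UMIs), a log2 difference of 5.40 (5.16 to 5.65). Endothelial barcodes had Cxcl1 at 2043 CPM in the old and 25.5 CPM in the young library, where 8 of the 10 UMIs came from 1 barcode, a log2 difference of 6.33 (5.45 to 7.39). Cxcl2 in endothelial barcodes was 306 CPM in the old and 17.8 CPM in the young library, whose 7 UMIs all came from 1 barcode. The young endothelial values of Cxcl1 and Cxcl2 thus hung on single barcodes, and the small number of young endothelial barcodes limits the comparison. A ratio of at least 2-fold toward the old library was held by 8.35% of the genes measured in endothelial and by 6.33% of those in mesothelial barcodes.

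Cxcl5, with no mesenchymal carry-over taken off, was also higher in old barcodes outside the mesenchymal class. Its level in mesothelial barcodes was 932 CPM in the old and 15.9 CPM in the young library (log2 5.87, 5.48 to 6.29). In endothelial barcodes 6443 UMIs (477 CPM) were counted in the old and 3 UMIs (7.64 CPM) in the young library. In Schwann cell barcodes Cxcl1 had 52 UMIs in the old and 0 in the young library. Its old level was at least 27.3-fold higher by the lower end of the interval. With the young count set to a floor of 3 UMIs over the class, the ratio was 34.9-fold. After thinning to 1000 UMIs per barcode the log2 against the same floor was 1.66. At least 2-fold was held by 8.37% of genes in this class. These Schwann cell barcodes were shallower in the old library, with medians of 3914 and 8176 UMIs.

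Free RNA and fragments of broken cells can bring mesenchymal transcripts into other barcodes, and empty droplets were not used here. The amount was therefore read from 6 mesenchymal genes (Mmp2, Pcolce, Fbn1, Col5a2, Serpinf1 and Col6a3), as their level in a class relative to that in mesenchymal barcodes. In the old library the median of the 6 ratios was 17.8% in macrophage barcodes (lowest 14.9, highest 20.8), 20.1% in endothelial ones (15.5 to 42.2), 27.0% in adipocyte ones (15.4 to 174), 30.7% in Schwann cell ones (3.12 to 137) and 37.5% in mesothelial ones (23.7 to 57.7). Multiplied with the mesenchymal level of a chemokine, they give a guide to the level that carry-over would leave. The ratios also hold any transcripts of the 6 genes made by the class itself and any mixed barcodes left in it. In young Schwann cell barcodes the median ratio would leave 14.4 CPM of Cxcl1, where 0 UMIs were counted.

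Cxcl5 outside mesenchymal barcodes was near or below the median of that background. It measured 477 CPM in old endothelial barcodes against 470.1 CPM from carry-over, 471 against 416 CPM in macrophage barcodes and 932 against 879.7 CPM in mesothelial ones. The endothelial level spanned 379 to 714 CPM over the alternative settings given at the end. In adipocyte and Schwann cell barcodes Cxcl5 measured 289 and 243 CPM and lay below it, at 0.456 and 0.338 times the median. At the lowest of the 6 ratios, Cxcl5 was 3.33 times the background in Schwann cell barcodes (73.0 CPM) and 1.68 times in mesothelial ones (555 CPM). Ratios above 100%, as found in Schwann cell and adipocyte barcodes, cannot come from carry-over alone, so the background there is uncertain.

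Cxcl1 in old endothelial barcodes, at 2043 CPM, was 3.20 times the median carry-over of 639 CPM and 1.52 times the highest. In macrophage barcodes Cxcl1 was 1.92 times the median and 1.64 times the highest. Mesothelial Cxcl1 (1892 CPM, interval 1775 to 2015) was 1.58 times the median, and its interval held the highest value of 1836 CPM. Adipocyte Cxcl1 (1.67 times the median) lay within the range of the 6 genes and Schwann cell Cxcl1 below the median. Carry-over from endothelial barcodes would leave 74.2 CPM of Cxcl1 in macrophage barcodes at the median of 6 endothelial genes. The highest ratio, 104.6% and set by Cd93, would give 2137 CPM. A ratio of that size cannot come from carry-over alone, so this value is no usable upper limit. Cd93 had 120 UMIs in old macrophage barcodes, where the endothelial genes Ptprb, Tek and Sox17 had 0.

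Cxcl2 and Cxcl3 in macrophage barcodes stood far above it. Cxcl2 at 2296 CPM was 121 times the 19.0 CPM of median carry-over, and Cxcl3 at 1328 CPM was 311 times the 4.27 CPM. In endothelial barcodes Cxcl2 was 14.3 times and Cxcl3 5.77 times the median carry-over. In the opposite direction, macrophage transcripts at the median ratio of 0.106% would leave 2.42 CPM of Cxcl2, 1.40 CPM of Cxcl3 and 0.118 CPM of Ppbp in old mesenchymal barcodes, where 107, 24.0 and 0.377 CPM were measured. Mesenchymal Cxcl3 was thus 17.1 times and mesenchymal Ppbp 3.18 times the level at the median ratio. The highest of the 3 usable macrophage ratios (1.67%), set by Cd53, would leave 38.4, 22.2 and 1.87 CPM. Mesenchymal Ppbp lay below that value and mesenchymal Cxcl3 just above it. Cd53 had 861 UMIs in old and 1092 in young mesenchymal barcodes, though the young library held 1 macrophage barcode. Its ratio is therefore an uncertain measure of carry-over. Young mesothelial Cxcl1 (44.7 CPM) was 3.17 times the median carry-over from young mesenchymal barcodes.

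**Figure D3:**
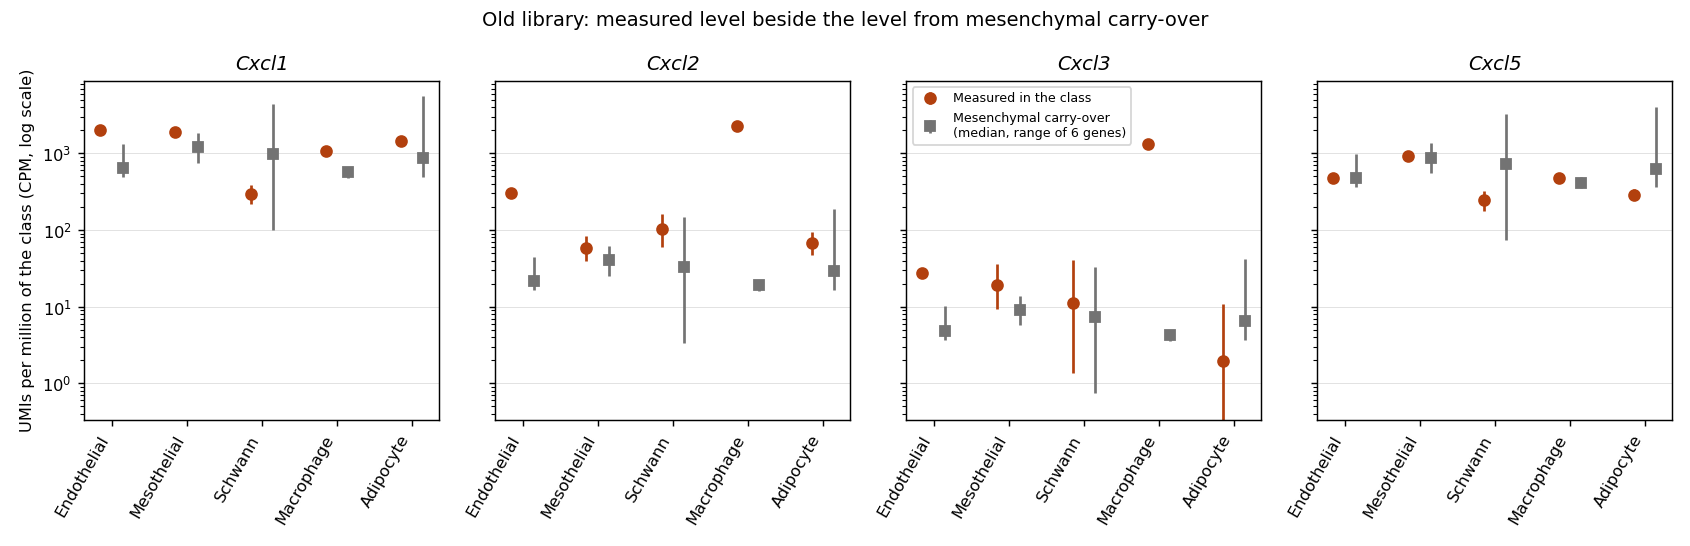
Level (CPM, log scale) measured in 5 classes of the old library (red, Poisson intervals) beside the level that mesenchymal carry-over would give (grey; square for the median and line for the range over 6 mesenchymal genes). Cxcl5 lies within or below the grey range in all 5 classes, and Cxcl2 and Cxcl3 in macrophage barcodes lie 121 and 311 times above the grey squares.

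Cxcl1 and Cxcl5 UMIs were found in nearly all old mesenchymal barcodes. At least 1 Cxcl1 UMI was found in 99.4% of old and 13.5% of young mesenchymal barcodes, and at least 1 Cxcl5 UMI in 97.2% and 11.0%. After thinning each barcode to 1000 UMIs, which left out 2 old and 7 young barcodes below that depth, the shares were 82.7% (82.0 to 83.4) and 2.36% (2.09 to 2.65) for Cxcl1. For Cxcl5 they were 68.0% (67.1 to 68.8) and 2.18% (1.93 to 2.47). Thinned shares were 16.2% for Cxcl1 and 10.8% for Cxcl5 in old Schwann cell barcodes, a glial class used as background, at median depths of 3914 UMIs there and 9640 in old mesenchymal barcodes. In old endothelial barcodes, where Cxcl5 was near the median carry-over, thinned shares were 63.7% and 29.3%. Before thinning, at least 1 UMI was found in 97.4% of these endothelial barcodes for Cxcl1 and in 86.9% for Cxcl5. A share with at least 1 UMI thus does not tell a cell's own transcripts from free RNA.

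Per 10000 UMIs of a barcode, Cxcl1 had a median of 25.2 UMIs in old mesenchymal barcodes, with 5.61 at the tenth percentile, 69.2 at the ninetieth and 413 in the highest barcode. The highest young barcode had 22.2, and 6283 old barcodes (55.7%) lay above it. No young barcode reached the old median. Cxcl5 had a median of 15.7 in old mesenchymal barcodes, with 1.89 and 63.4 at the same percentiles, against a highest young barcode of 26.9. Of the old barcodes 34.6% lay above that one, and 13 young barcodes reached the old median. The mean level of old Schwann cell barcodes was exceeded by 96.2% of old mesenchymal barcodes for Cxcl1 and by 86.6% for Cxcl5. The median carry-over read for old endothelial barcodes was higher, at 6.39 for Cxcl1 and 4.70 for Cxcl5 per 10000 UMIs. It was exceeded by 88.4% of old mesenchymal barcodes for Cxcl1 and by 75.2% for Cxcl5.

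In the young library these transcripts were gathered in few barcodes. The tenth of young mesenchymal barcodes richest in Cxcl1 held 86.5% of its UMIs, and for Cxcl5 96.1%, where the old values were 28.9% and 31.1%. Since 13.5% of young mesenchymal barcodes held any Cxcl1 UMI and 11.0% any Cxcl5 UMI, a high share in the tenth follows from the counts themselves.

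Cxcl2 and Cxcl3 were confined to a minority of old mesenchymal barcodes. Cxcl2 was found in 23.0% of old and 0.138% of young mesenchymal barcodes, and Cxcl3 in 7.29% and 0.0776%. The tenth of old barcodes richest in Cxcl2 held 87.0% of its UMIs and the hundredth richest 40.4%, and the hundredth richest in Cxcl3 held 62.6%. The highest barcode had 294 UMIs of Cxcl2, and 528 old barcodes (4.68%) lay above the highest young one per 10000 UMIs. After thinning, Cxcl3 was found in 142 of 11280 old barcodes (1.26%) and in 0 of 11585 young ones, which allows a share of up to 0.0259% of barcodes with a UMI.

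**Figure D4:**
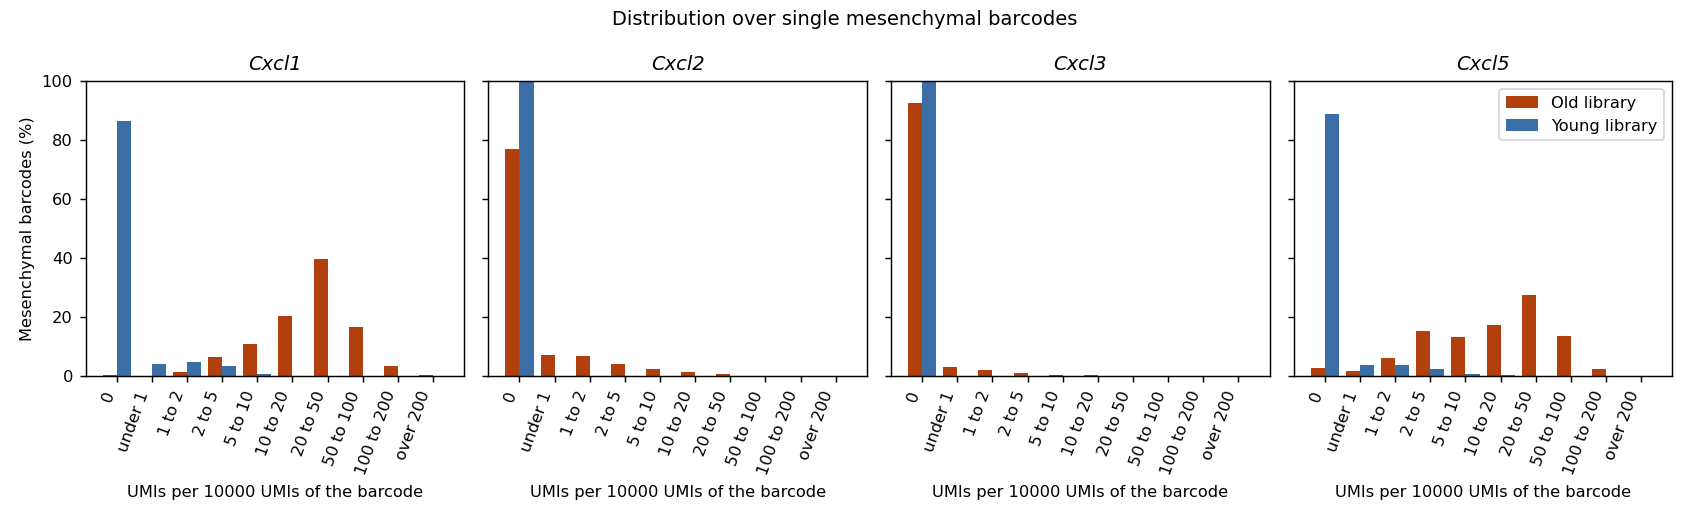
Share (%) of mesenchymal barcodes of the old library (red) and the young library (blue) by UMIs of each chemokine per 10000 UMIs of the barcode. For Cxcl1 and Cxcl5 the old barcodes spread around medians of 25.2 and 15.7 while most young ones are at 0, and for Cxcl2 and Cxcl3 most barcodes of both libraries are at 0.

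Most old mesenchymal barcodes carried Cxcl1 and Cxcl5 together. In thinned old barcodes both were found in 58.8%, where the product of the single shares is 56.2%. Cxcl2 and Cxcl3 were found together in 31 thinned barcodes (0.275%), 3.88 times the product of their shares. Pearson's r of log values over the 11282 old barcodes, which share a library and differ in depth, was 0.41 for Cxcl1 with Cxcl5, 0.18 for Cxcl1 with Cxcl2 and 0.14 for Cxcl2 with Cxcl3. In thinned young barcodes Cxcl1 and Cxcl5 were found together in 21 barcodes, 3.52 times the product of their shares, with r = 0.19 over the 11592 unthinned barcodes.

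The genes whose pattern over old mesenchymal barcodes was most like that of Cxcl1, among 8057 genes with at least 1000 UMIs there, were the cytokine gene Il6 (r = 0.44), the monocyte chemokines Ccl2 (0.44) and Ccl7 (0.44), Cxcl5 (0.41) and Ptx3 (0.31), a soluble pattern recognition protein. They were followed by Nfkbia, Sod2, Cebpb, Phlda1 and Plpp3 (0.30 to 0.25), while Cxcl2 ranked 25 and Cxcl3 178. Over young mesenchymal barcodes r with Cxcl1 was 0.11 for Il6, 0.10 for Ccl2, 0.14 for Ccl7 and 0.16 for Ptx3. Cxcl5 was most like Cxcl1, Ptx3 (0.36), the Wnt inhibitor Sfrp1 (0.34), Ccl2 (0.33) and the ferritin heavy chain gene Fth1 (0.33), and after these Plpp3, Ccl7, Igfbp4, Sod2 and Cxcl12 (0.33 to 0.31). Cxcl2 had lower values throughout, with Ccl2 (0.23), Ccl7 (0.21), Nfkbia (0.19), Cxcl1 (0.18), Atf3 (0.17), Tnfaip3 (0.17), the cyclooxygenase gene Ptgs2 (0.16), Ereg (0.15), Ier3 (0.15) and Cxcl3 (0.14). Sampling lowers r for genes of low count, and Cxcl2 and Cxcl3 are such genes.

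Within old mesenchymal barcodes, Cxcl1 and Cxcl5 differed between cycling, pericyte and Pi16 subsets and the rest by less than 2-fold. Cycling barcodes, 3494 with at least 3 UMIs of mitotic genes, had Cxcl1 at 2798 CPM and Cxcl5 at 1762 CPM, and the other barcodes had them at 3440.2 and 2730.3 CPM. The 197 barcodes with pericyte markers had Cxcl5 at 1477 CPM, against 2361 CPM in the rest, and Cxcl1 at 2873 CPM, against 3189.9 CPM. In the 3157 barcodes with a UMI of Pi16, a marker of adventitial fibroblasts, Cxcl1 was at 3234 CPM and Cxcl5 at 2430.3 CPM, and in those without at 3163 and 2307 CPM.

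The levels went with depth in opposite directions. With old mesenchymal barcodes put in 4 bins of equal size from low to high depth, Cxcl1 was 3957 CPM in the shallowest and 2942 CPM in the deepest, and Cxcl5 3178 and 1935 CPM. Cxcl2 instead was 81.6 CPM in the shallowest and 125 CPM in the deepest bin, and Cxcl3 8.57 and 32.8 CPM. Median depths in this class were 9640 UMIs in old and 9411.5 in young barcodes. The part of depth in the levels was not tested.

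Collagenase digestion is known to induce immediate early and heat shock genes. The summed share of 13 such genes varied with Cxcl1 and Cxcl2, and less with Cxcl5. The most abundant of the 13 listed in old mesenchymal barcodes was Ier3, at 626 CPM, so it weighs most in their sum. The heat shock genes Hspa1a and Hspa1b, at 11.3 and 9.09 CPM, weigh little in it. Ranked into 4 equal bins by the summed share of the 13 genes, a split chosen after the data had been seen, old mesenchymal barcodes had Cxcl2 at 50.02, 57.3, 99.2 and 224 CPM and Cxcl1 at 2148, 2772, 3321 and 4534 CPM. Cxcl5 spanned only 1895 to 2648 CPM. In the same bins of young mesenchymal barcodes Cxcl1 was 17.7, 25.2, 29.1 and 32.7 CPM. Between the libraries 3 of the 13 genes of this list were at least 2-fold higher in old mesenchymal barcodes, Ier3 (5.88-fold), Atf3 (5.66-fold) and Nr4a1 (3.84-fold), against 9.51% of all genes. The median log2 difference of the list was 0.62, and Fos was lower (log2 -0.73). Bins of low to high mitochondrial share were also chosen after the data had been seen. In these, old mesenchymal Cxcl2 was 166, 100.1, 74.8 and 66.6 CPM and Cxcl1 3601, 3088, 3011 and 2900.5 CPM. Old mesenchymal Cxcl5 instead rose, at 2235, 2252, 2388 and 2562 CPM. Young mesenchymal Cxcl1 was 16.8, 26.5, 31.2 and 30.95 CPM, lowest in the bin of lowest share. Median depth of the old bins fell from 11403 UMIs at the lowest share to 8349 UMIs at the highest. The part of the digest or of RNA quality in the chemokine levels was not tested.

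The macrophage barcodes of the old library carried Cxcl2 and Cxcl3 widely and Ppbp rarely. Cxcl2 was found in 93.8% of the 97 barcodes (64.9% after thinning) and Cxcl3 in 70.1% (45.4%). Per 10000 UMIs the median barcode had 12.5 of Cxcl2 and 3.75 of Cxcl3, with 123 and 136 in the highest. Ppbp was found in 16 barcodes (16.5%), and 3 of them held 45 of its 72 UMIs (62.5%). The other 7 platelet and megakaryocyte markers listed, such as Itga2b and Gp9, had 0 UMIs in all old macrophage barcodes. The 16 barcodes with Ppbp had Cxcl2 at 3632 CPM, Cxcl3 at 2140.03 CPM and Cd68 at 271 CPM, and the 81 without at 1982, 1137 and 543 CPM. Pf4, the platelet factor 4 gene beside Ppbp and one of the genes that defined the class, was at 17653 and 16722 CPM. The single young macrophage barcode had 0 UMIs of all 5 chemokines among 12798 UMIs, which allows up to 234 CPM each.

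The receptors of these chemokines were almost absent. Cxcr1 had 0 UMIs in both libraries. Cxcr2, the main neutrophil receptor, had 15 UMIs in old and 39 UMIs in young mesenchymal barcodes (log2 -1.38, -2.35 to -0.49) and 0 UMIs in macrophage barcodes of both libraries. Of the 10 neutrophil genes listed, S100a9, Retnlg and Ngp had 0 UMIs over all barcodes of both libraries. Ly6g had 2 in the old library and 0 in the young. At least 3 UMIs from 2 genes of the list were found in 174 old and 15 young barcodes. Other genes of the list were counted in mesenchymal barcodes, where the 10 genes summed to 46.3 CPM in old and 13.9 CPM in young ones, and Camp alone had 4072 and 62 UMIs. In old macrophage barcodes the 10 genes summed to 248 CPM, with 127 UMIs of S100a8.

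Scavenger and decoy receptors were present in stromal and endothelial barcodes. Ackr1, which binds these chemokines on venular endothelium, had 1383 UMIs (102 CPM) in old and 10 UMIs (25.5 CPM) in young endothelial barcodes, and 183 and 33 UMIs in mesenchymal ones. Ackr3, a scavenger receptor of Cxcl12, was at 32.7 CPM in old and 4.60 CPM in young mesenchymal barcodes (log2 2.83, 2.70 to 2.96). Ackr2 had 17 and 0 UMIs and Ackr4 6 and 13 UMIs in mesenchymal barcodes. Of the 3 receptor genes with at least 20 UMIs, 2 were at least 2-fold higher and 1 was at least 2-fold lower in old mesenchymal barcodes, where 6.84% of all genes were as much lower.

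Among the 8 measured of 11 other CXC and CX3C chemokines, 6 were at least 2-fold higher in old mesenchymal barcodes and none was lower by as much (median log2 2.68), where 9.51% and 6.84% of all genes were. Pf4 was at 12.6 CPM in old and 0.469 CPM in young ones, Cxcl14 at 98.3 and 13.6, Cxcl16 at 105 and 18.3, the interferon-inducible Cxcl10 at 5.24 and 0.674, and Cx3cl1 at 14.2 and 5.03 CPM. Cxcl12, which retains leukocytes and progenitors in tissues, was the most abundant of them at 1482 and 763 CPM, a ratio of 1.94-fold. Old macrophage barcodes held 16899 CPM of Pf4. The ratios read above for macrophage transcripts in old mesenchymal barcodes were 0.106% at the median and 1.67% at the highest, set by Cd53. The part of such carry-over in the mesenchymal Pf4 level was not tested.

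Receptors and adaptors that induce the chemokines had a median difference near that of all genes. Of 10 genes, 2 were at least 2-fold higher in old mesenchymal barcodes, where 9.51% of all genes were: Tlr2, a receptor of bacterial lipoproteins, at 9.51 and 0.954 CPM, and Tnfrsf1b, the second tumour necrosis factor receptor, at 20.8 and 6.95 CPM. The interleukin 1 receptor Il1r1 was at 146 and 85.8 CPM and the interleukin 17 receptor Il17ra at 40.1 and 32.1 CPM. Il1rap (18.9 and 25.4 CPM) and Il6st (148 and 231 CPM) were lower in old mesenchymal barcodes, by less than 2-fold. The median log2 difference of the list was 0.09, against 0.13 over all genes.

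NF-κB subunits and the genes that damp its action stood apart from that. Of 11 genes, 8 were at least 2-fold higher in old mesenchymal barcodes and none at least 2-fold lower, against 9.51% and 6.84% of all genes, with a median log2 difference of 1.74. Tnfaip3, a ubiquitin-editing inhibitor of NF-κB, was at 29.0 CPM in old and 1.71 CPM in young ones (16.9-fold). Zc3h12a, a ribonuclease that degrades cytokine transcripts, was at 84.1 and 8.40 CPM (10.0-fold). Nfkbia, which encodes the inhibitor IκBα, was at 427 and 99.4 CPM, Tnip1 at 64.2 and 15.1, Nfkbiz at 111 and 29.4 and Nfkb2 at 29.8 and 8.94 CPM. The ratios of all 6 were smaller than those of Cxcl1, Cxcl2, Cxcl3 and Cxcl5 in the same barcodes.

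Along the chromosome, the high ratios were not shared by every gene near the chemokines. Cxcl15, a lung chemokine gene between Cxcl3 and Cxcl1, had 8 UMIs in old and 6 in young mesenchymal barcodes. Rassf6 on one side was at 1.43 and 1.47 CPM, and Mthfd2l on the other, a mitochondrial folate enzyme gene next to Cxcl2, at 51.9 and 32.3 CPM. Beyond it lie 4 genes of epidermal growth factor receptor ligands, of which Areg was at 12.5 and 0.354 CPM, Ereg at 234 and 41.1 CPM, Btc at 10.1 and 2.61 CPM and Epgn at 31 and 6 UMIs. Parm1 was at 38.9 and 19.3 CPM. Of the 8 measured genes of this stretch that are not members, 6 were at least 2-fold higher in old mesenchymal barcodes, where 9.51% of all genes were. Pf4, at 12.6 and 0.469 CPM, is one of these 6, and the part of macrophage carry-over in it was not tested.

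**Figure D5:**
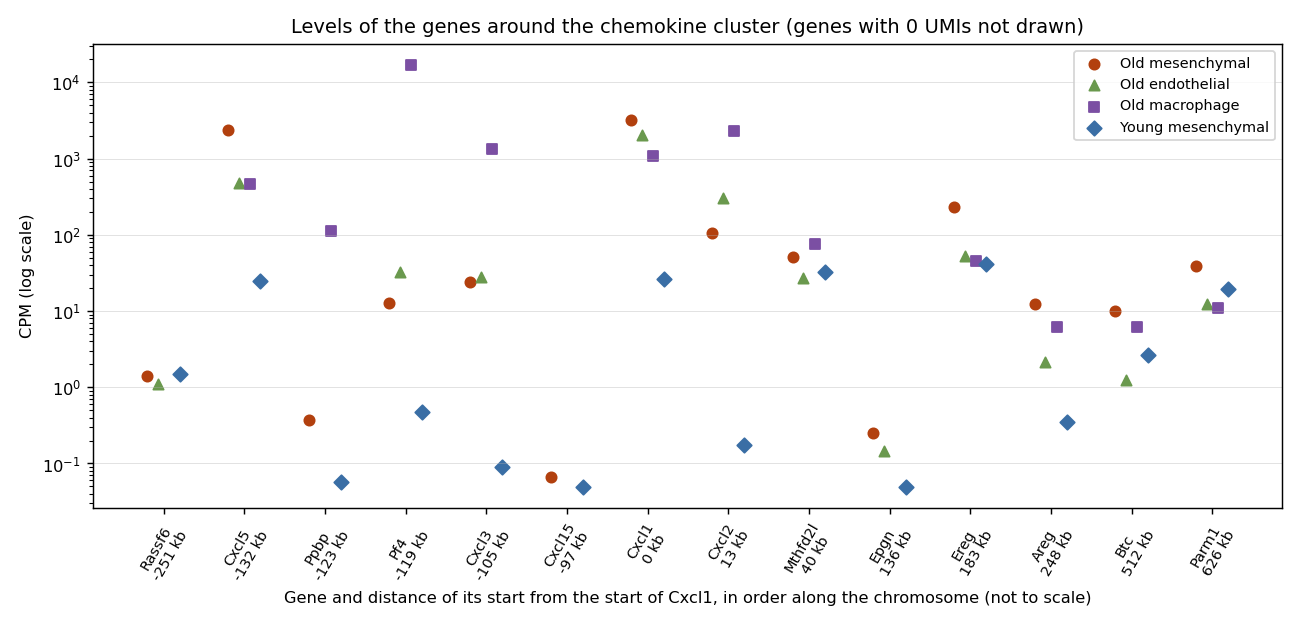
Level (CPM, log scale) of the genes around the chemokines in the order of their start sites, with the distance of each start from that of Cxcl1 in kb, in old mesenchymal (red), old endothelial (green), old macrophage (purple) and young mesenchymal barcodes (blue); levels of 0 are not drawn. Cxcl1 and Cxcl5 are at 3184 and 2344 CPM in old mesenchymal barcodes, while Cxcl15 between them is at 0.0656 CPM and Rassf6 at 1.43 CPM.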

How the data were processed

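The authors deposited raw UMI counts per gene and barcode, written by Cell Ranger 3.0.1 per the file headers, on mm10 per the submitters' processing notes. How barcodes were called and which annotation was used is not stated there. Every file maps to 1 library, with 0 columns left unmapped. Members and gene lists were chosen with earlier results of these data known.

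Barcodes under 500 genes or over 10% mitochondrial UMIs were removed. A class needed 5 UMIs from 3 of its marker genes (mesenchymal: 10 from 3, with no other class). Barcodes of more than 1 class (17 old, 1 young) were left out, as were barcodes of other classes, mesothelial excepted, whose share of mesenchymal UMIs reached 0.5 times the mesenchymal median (409 old, 30 young). This is how doublets were treated, and no caller was run. Another 601 old and 737 young barcodes fell in no class. UMIs were summed per class as CPM with exact Poisson intervals, ratios carry exact conditional Poisson intervals, and shares use barcodes thinned to 1000 UMIs with Clopper-Pearson intervals, whose confidence level is 95%. A count of 0 was set to 3 for ratios and limits. Thinning uses a fixed seed. PCR copies are removed by UMIs, but intervals cover counting error only.

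Named genes were the members, all receptors, up to 6 genes per list with the largest absolute log2 difference and at least 100 UMIs, and the 10 genes of highest r. Neutrophil, platelet and Cd68 values, and the genes along the chromosome, were added after their values had been seen. The computation was tested on simulated counts. Tools were Python 3.11.15, numpy 2.4.6, scipy 1.17.1, pandas 2.3.3 and matplotlib 3.10.9.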

Additional observations from a re-analysis of the deposited data

How the results depend on the processing

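In mesenchymal barcodes all 5 ratios kept their direction under the 10 alternatives run, which changed the cell filter, the gates, the limit on mixed barcodes, the barcodes of highest depth, the scaling, the summing and the depth. The log2(old/young) of Cxcl1 moved beyond its counting interval to 6.89 with the stricter gate, 6.80 without the tenth of barcodes with the most UMIs, 6.81 with median-of-ratios size factors and 6.83 as a mean over barcodes. Cxcl5 moved to 6.44 with size factors, 6.63 as a mean over barcodes and 6.82 thinned to 1000 UMIs, and Cxcl2 to 8.24 when thinned. Genes at least 2-fold lower numbered 640 with at least 100 UMIs, and with a limit of 1.5-fold 3020 genes were higher and 1970 lower. Reversed were Cxcl3 in Schwann cell barcodes with no limit on the mesenchymal share (log2 -0.26) and Cxcl3 in endothelial barcodes when thinned (-1.40), both with a young count of 0 set to 3. Of the other values, 234 stayed and 69 moved. The old macrophage levels depended most on the gates: over the alternatives Cxcl2 spanned 1363 to 2333 CPM, Cxcl3 779 to 1420.45 CPM, Cxcl1 985 to 1686 CPM and Cxcl5 330.3 to 1119.9 CPM, and with the looser gate Cxcl1 (1686) exceeded Cxcl2 (1363 CPM). The cause was not tested. Young endothelial ratios are limited by 39 barcodes, with a log2 of 4.01 to 7.49 for Cxcl1. No paired analysis was possible because each age has 1 library.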
